A study of Mus musculus with 23 samples.

Results

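The transcripts described here encode the fatty acid desaturases Fads1, Fads2, Fads3 and Fads6 and the elongases Elovl2 and Elovl5. They were chosen by gene name as the enzymes of polyunsaturated fatty acid synthesis and their desaturase relatives, and they are 6 of the 26522 genes listed in either of the deposited tables. All 6 are listed in both tables and passed the filter on low counts in every fit. Liver RNA was sequenced in bulk from 23 mice, of which 5 males and 6 females were controls and 6 of each sex were LKO. All of them, controls included, carried the B100 background, received the diet labelled WD for 16 weeks and were necropsied in the fed state. LKO marks the livers in which, as the title of the series has it, Cpt1a was ablated. The labels give neither the age of the mice nor the means by which Cpt1a was removed, and they do not expand B100 or WD.

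Mammals cannot make linoleic or alpha-linolenic acid and build the longer polyunsaturated fatty acids from these dietary precursors. Fads2 introduces the first new double bond, Elovl5 lengthens the product, and Fads1 introduces the next double bond, which gives arachidonic and eicosapentaenoic acid. Elovl2 lengthens these further, and peroxisomal beta-oxidation shortens the final intermediate to docosahexaenoic acid (DHA). The liver is a main site of this synthesis, and the lipogenic factor SREBP1 and the fatty acid sensor PPAR-alpha are both known to drive Fads1 and Fads2 transcription. Fads3 acts on sphingoid bases, and Fads6 is a desaturase relative whose substrate is not well established.

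In the coordinates of the tables, 3 of the genes lie side by side on chromosome 19. They are Fads3 (ENSMUSG00000024664, chromosome 19, 10018933 to 10037474, plus strand), Fads2 (ENSMUSG00000024665, chromosome 19, 10040129 to 10079110, minus strand) and Fads1 (ENSMUSG00000010663, chromosome 19, 10160252 to 10174241, plus strand). Fads3 and Fads2 are 2.655 kb apart, and Fads2 and Fads1 are 81.1 kb apart. The ablated gene Cpt1a lies on the same chromosome, 6.58 to 6.72 Mb from these desaturases. Fads6 (ENSMUSG00000044788, chromosome 11, 115170448 to 115188489, minus strand), Elovl2 (ENSMUSG00000021364, chromosome 13, 41335857 to 41373881, minus strand) and Elovl5 (ENSMUSG00000032349, chromosome 9, 77824646 to 77891801, plus strand) lie on other chromosomes. The only listed gene that overlaps a member is the microRNA gene Mir6993 inside Fads1, with at most 2 counts in any sample.

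Promoter windows of 3 genes are shown because Fads2 was the most abundant member and the ratio of Elovl2 to Elovl5 was higher in LKO than in control females. Each is the 250 bases before the start in RefSeq on build GRCm38.p6, which is not the build of the tables, written 5′ to 3′ on the strand of the gene. Capitals mark the letters CCAAT (the NF-Y box) and GGGCGG (an Sp1 box) on either strand.
Fads2, chr19:10101504-10101753, minus strand: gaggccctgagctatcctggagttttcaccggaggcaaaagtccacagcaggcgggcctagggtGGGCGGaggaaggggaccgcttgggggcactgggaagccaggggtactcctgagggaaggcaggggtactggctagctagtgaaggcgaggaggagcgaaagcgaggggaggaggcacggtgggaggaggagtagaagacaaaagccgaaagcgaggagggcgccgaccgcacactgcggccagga
Elovl2, chr13:41220404-41220653, minus strand: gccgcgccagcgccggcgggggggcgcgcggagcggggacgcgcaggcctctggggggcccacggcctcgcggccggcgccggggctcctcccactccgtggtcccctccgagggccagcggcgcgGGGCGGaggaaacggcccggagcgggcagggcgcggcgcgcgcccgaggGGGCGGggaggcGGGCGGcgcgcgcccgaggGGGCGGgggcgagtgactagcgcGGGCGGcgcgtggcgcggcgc
Elovl5, chr9:77917115-77917364, plus strand: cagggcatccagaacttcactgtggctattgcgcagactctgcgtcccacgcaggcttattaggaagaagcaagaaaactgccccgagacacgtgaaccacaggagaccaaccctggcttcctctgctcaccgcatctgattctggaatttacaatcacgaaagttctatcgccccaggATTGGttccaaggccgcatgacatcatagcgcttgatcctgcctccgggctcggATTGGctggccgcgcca
RefSeq windows were found for 5 of the 6 genes, not for Fads1. The Elovl2 window held 5 GGGCGG matches at 21 to 124 bases before the start and no CCAAT, but RefSeq has a second Elovl2 window, not shown, that held 0 of either. The Elovl5 window held 2 CCAAT matches at 17 and 71 bases and no GGGCGG. The Fads2 window held 1 GGGCGG at 186 bases and no CCAAT. Over the 32851 RefSeq windows of this length, CCAAT occurs in 33.8 percent and GGGCGG in 32.7 percent. None of the 5 genes' windows held the sterol regulatory element core TCACNCCAC (1.05 percent of all windows) or a direct repeat of the nuclear receptor half-site AGGTCA spaced by 1 base (0.0335 percent) or by 4 bases (0.0152 percent). The E-box CANNTG, present in 66.2 percent of windows, occurred at 2 places in Elovl5 and at 0 in the Fads2 and Elovl2 windows shown. These are matches of letters in 1 window per start, not mapped binding sites.

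Total counts ran from 14224665 to 19626662 per sample. Levels are given as CPM, counts relative to a library total that was scaled by TMM factors within each sex. Cpt1a, which checks the labels, fell from 362 ± 51.0 CPM (SD, n = 5) to 63.9 ± 20.3 CPM (SD, n = 6) in males and from 383 ± 57.8 CPM (SD, n = 6) to 75.0 ± 8.54 CPM (SD, n = 6) in females, with no overlap of groups in either sex. Hepatocyte markers were high in every library, at 44293 to 80900 summed CPM over 6 genes, of which albumin (Alb) made up most. Control male replicate 4 stood apart from the other 4 control males, by the values of genes that are compared below. It had the lowest total and, relative to the mean of the other 4 control males, 46.8 percent of Fads1, 39.6 percent of Fads2, 37.3 percent of Fads3 and 47.3 percent of Elovl5, but 96.1 percent of Elovl2. Male comparisons of the 6 genes are therefore given with and without it. Because it was singled out by values of these same genes, the fits without it are descriptions, not independent checks. In bulk liver, fewer cells of a type and less RNA per cell cannot be told apart.

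Per transcript length, the 2 enzymes that open the pathway led the group. On the FPKM scale, the mean over 23 livers was 622 for Fads2, 242 for Elovl5, 129.6 for Fads1, 119.8 for Elovl2, 15.5 for Fads6 and 9.67 for Fads3. Fads2 ranked 83rd of 13805 tested genes in the male table and 87th of 13684 in the female table by mean FPKM. Fads2 exceeded Elovl5, and Elovl5 exceeded Fads1, in 23 of 23 livers. Fads1 and Elovl2 could not be ordered, since Fads1 was the higher in 13 of 23. Elovl2 exceeded Fads6 in 23 of 23 and Fads6 exceeded Fads3 in 19 of 23, with the exceptions all in females, where both groups of Fads6 and Fads3 values overlapped. The genes that carry out the steps to arachidonic acid and DHA were thus the abundant ones, and Fads3 and Fads6 were the low members.

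The LKO to control comparison asked how these transcripts differ after ablation of Cpt1a, which encodes the gatekeeper of fatty acid entry into mitochondria. None of the 6 genes was called at an edgeR adjusted p under 0.05 in either sex. In males this was 0 of 6 against 0.00724 percent of the 13805 genes tested, and in females 0 of 6 against 1.42 percent of 13684. At an unadjusted p under 0.05 there was 1 member in males (Fads6) against 12.5 percent of genes, and there were 2 in females (Fads2 and Elovl5) against 15.6 percent. DESeq2 also called 0 members in each sex. The groups overlapped for every member in both sexes, whereas they did not overlap in 1.77 percent of male and 1.59 percent of female tested genes. The median log2 fold change of the 6 was 0.03 in males and 0.05 in females, beside 0.01 and 0.00507 over all genes.

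**Figure D1:**
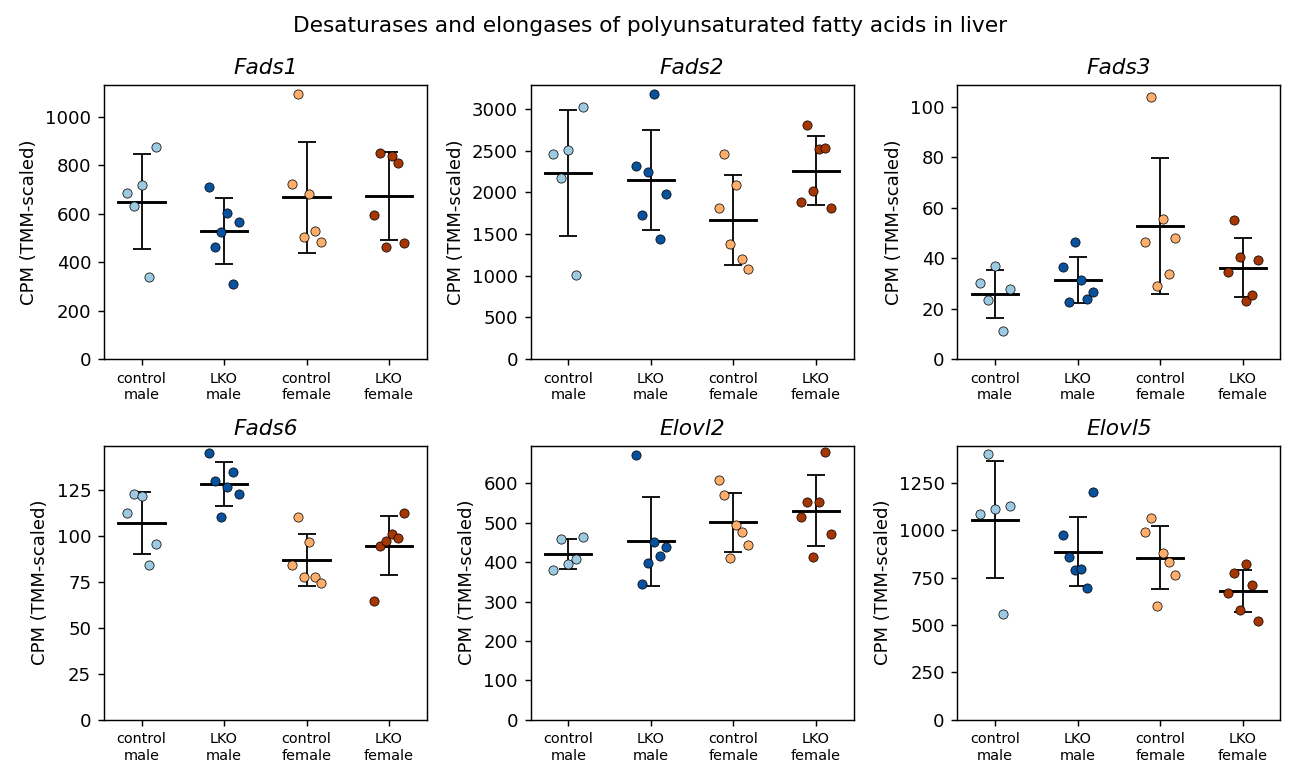
Levels of the 6 genes in CPM (linear axis from 0), 1 point per mouse in 4 groups, with horizontal lines at the group mean and bars of 1 SD. No gene separates LKO from control completely, and the lowest control male point of Fads1, Fads2, Fads3, Fads6 and Elovl5 is replicate 4.

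Fads2, which carries out the first desaturation, was the member with the highest counts, 12411 to 51931 per liver. In females the lowest, median and highest CPM were 1076, 1595 and 2457 in controls and 1807, 2266 and 2813 in LKO livers. All 6 LKO females lay above the control mean and 3 of 6 above the highest control. The female means were 1667 ± 543 CPM (SD, n = 6) and 2260.2 ± 413 CPM (SD, n = 6), a log2 fold change of 0.44 (SE 0.19, adjusted p 0.289). This difference did not pass the adjusted threshold. In males the controls, replicates 1, 2, 3, 4 and 6, had 2455, 2176, 2502, 1004 and 3023 CPM, and the LKO livers had 1443, 2113 and 3179 as lowest, median and highest. The 2 male groups largely overlapped, with a log2 fold change of -0.05 (SE 0.25, adjusted p 0.956), and -0.24 (adjusted p 0.643) without control male replicate 4. Its male sign turned without control male replicate 6 (0.08).

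Elovl5 lengthens the product of Fads2. In control females its CPM ran over 598, 855 and 1066 as lowest, median and highest, and in LKO females over 523, 689 and 821. All 6 LKO females were below the control mean and 2 of 6 below the lowest control. The female means were 855 ± 166 CPM (SD, n = 6) and 679 ± 113 CPM (SD, n = 6), and the log2 fold change was -0.33 (SE 0.14, adjusted p 0.271). In males the 5 controls had 1086, 1401, 1109, 558 and 1124 CPM in the same replicate order and the LKO livers 693, 827 and 1203. Here 5 of 6 LKO males were below the control mean and none was below the lowest control, which was replicate 4. The log2 fold change in males was -0.25 (SE 0.20, adjusted p 0.649), and without that control -0.41 (adjusted p 0.342). Without control male replicate 2, the highest, it was -0.12 (adjusted p 0.852). Averaged over both sexes it was -0.29 (SE 0.13, adjusted p 0.289). The log2 fold change of Elovl5 was thus negative in both sexes, and it passed the threshold in none of these fits.

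Fads1 makes the last double bond of arachidonic acid. Control females had 485, 604 and 1093 CPM as lowest, median and highest and LKO females 461, 702 and 850.2. The 2 female groups covered about the same range, with 3 of 6 LKO livers on each side of the control mean and a log2 fold change of 0.01 (SE 0.21, adjusted p 0.991). Control males had 685, 630.4, 720.1, 340.2 and 874 CPM, and LKO males 309.5, 544 and 711, with 5 of 6 below the control mean. The male log2 fold change was -0.30 (SE 0.23, adjusted p 0.636), and -0.46 (adjusted p 0.399) without control male replicate 4. It was -0.17 without control male replicate 6 and -0.18 without LKO male replicate 5, so single livers moved it by more than 1.5 times in both directions.

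Elovl2 is the elongase of the late steps towards DHA. Its CPM was 412, 486 and 609 as lowest, median and highest in control females and 413, 533 and 679 in LKO females, a log2 fold change of 0.08 (SE 0.12, adjusted p 0.811). The male controls had 379, 459.5, 396, 408 and 463 CPM and the LKO males 345, 427 and 671, with a log2 fold change of 0.11 (SE 0.15, adjusted p 0.829). The highest male value was that of LKO male replicate 1, without which the sign turned (log2 fold change -0.04). Without control male replicate 4 the male log2 fold change was 0.09 (adjusted p 0.868). Elovl2 was the only member in which control male replicate 4 was not the lowest control.

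Fads6 and Fads3 stand outside the pathway to DHA. For Fads6, control males had 113, 123, 122, 84.4 and 95.5 CPM and LKO males 110.4, 128 and 145. All 6 LKO males were above the control mean and 5 of 6 above the highest control. The male log2 fold change was 0.26 (SE 0.11, adjusted p 0.366), and 0.18 (adjusted p 0.492) without control male replicate 4. In females the values were 74.5, 81.0 and 111 CPM in controls and 64.6, 98.1 and 113 in LKO livers, a log2 fold change of 0.13 (SE 0.13, adjusted p 0.694). It was 0.22 without LKO female replicate 1, the lowest, 0.21 without control female replicate 2 and 0.07 without LKO female replicate 6. Averaged over both sexes Fads6 differed by 0.20 (SE 0.09, adjusted p 0.306).

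Fads3 had the widest spread. Control females had 29.0, 47.0 and 104 CPM as lowest, median and highest and LKO females 23.1, 36.9 and 55.0. The highest control female, replicate 2, had 103.9 CPM where the next had 55.6, and 5 of 6 LKO females were below the control mean. The female log2 fold change was -0.54 (SE 0.28, adjusted p 0.366), and -0.23 (adjusted p 0.677) without that control. In males the controls had 30.2, 23.4, 36.7, 11.005 and 27.6 CPM and the LKO livers 22.7, 28.9 and 46.4, a log2 fold change of 0.27 (SE 0.26, adjusted p 0.724) and of 0.08 (adjusted p 0.919) without control male replicate 4. The male value was 0.44 without control male replicate 3 and 0.13 without LKO male replicate 3.

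**Figure D2:**
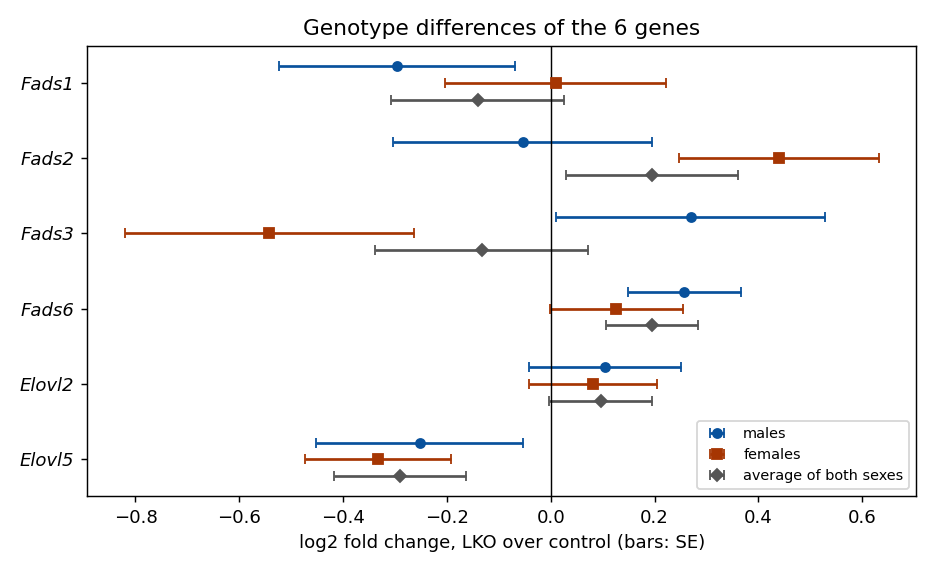
The log2 fold change of LKO over control for each gene (horizontal axis), with bars of 1 SE, in males (circles), females (squares) and the average of both sexes (diamonds). Elovl5 lies below 0 in both sexes, and Elovl2 and Fads6 lie above 0 in both. Fads1, Fads2 and Fads3 have opposite signs in the 2 sexes, Fads1 with a female value of 0.01. No value passed the adjusted threshold.

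Whether the genotype difference itself differed between the sexes was tested on all 23 livers. None of the 6 interaction terms was called by edgeR, against 0 percent of 14503 genes, and none had an unadjusted p under 0.05, against 12.9 percent. DESeq2 also called 0 of these terms and 0 members for the average of both sexes. The female minus male difference was -0.81 (SE 0.41, adjusted p 0.416) for Fads3, 0.49 (SE 0.33, adjusted p 0.557) for Fads2 and 0.30 (SE 0.33, adjusted p 0.743) for Fads1, the members whose signs were opposite in the 2 sexes. For the average of both sexes, 0 of 6 members were called against 0.545 percent of genes, and 2 of 6, Elovl5 and Fads6, had an unadjusted p under 0.05 against 14.8 percent.

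Ratios of 2 genes within a sample do not depend on the library scaling, and in females both ratios examined differed between the genotypes. They are ratios of counts, not corrected for transcript length, so only their change between groups is read. The ratio of Fads1 to Fads2, the later to the earlier desaturase, was 0.326, 0.420 and 0.450 as lowest, median and highest in control females and 0.229, 0.309 and 0.332 in LKO females. It fell from 0.404 ± 0.0507 (SD, n = 6) to 0.294 ± 0.0393 (SD, n = 6), a difference in log2 ratio of -0.46 (SE 0.11, two-sided exact permutation p 0.00433, adjusted p 0.00866). All 6 LKO females were below the control mean and 5 of 6 below the lowest control. Adjustment was over 4 tests (2 ratios in 2 sexes), and the smallest p that the 924 splits of the females allow is 0.00216. The 2 ratios were chosen with earlier results of these data known, which the adjustment does not cover. They include Fads2 and Elovl5, the members with an unadjusted edgeR p under 0.05 in females. Ratios of other pairs of members were not examined.

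In males the Fads1 to Fads2 ratio was 0.279, 0.290, 0.288, 0.339 and 0.289 in controls (replicates 1, 2, 3, 4 and 6) and 0.190, 0.250 and 0.307 in LKO livers. Of the LKO males 4 of 6 were below the lowest control, and the difference was -0.27 (SE 0.12, two-sided exact permutation p 0.0758, adjusted p 0.101). Male livers thus showed a difference of the same sign that did not pass the threshold. Without LKO male replicate 1, the highest LKO male, it was -0.33 (adjusted p 0.0212), and without control male replicate 4, the highest control, -0.22 (adjusted p 0.148).

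The ratio of Elovl2 to Elovl5, the late to the early elongase, was higher in LKO females. In females it was 0.535, 0.577 and 0.689 as lowest, median and highest in controls and 0.674, 0.743 and 0.957 in LKO livers. It rose from 0.593 ± 0.0539 (SD, n = 6) to 0.789 ± 0.115 (SD, n = 6), a log2 difference of 0.40 (SE 0.10, two-sided exact permutation p 0.00433, adjusted p 0.00866), with 6 of 6 LKO females above the control mean and 5 of 6 above the highest control. Male controls had 0.350, 0.328, 0.357, 0.731 and 0.412 and LKO males 0.365, 0.534 and 0.688, a difference of 0.29 (SE 0.26, two-sided exact permutation p 0.260, adjusted p 0.260). Control male replicate 4 was far above the other 4 controls, and without it the male difference was 0.50 (adjusted p 0.0444), so the male call depended on that library. Whether either ratio changed differently in the 2 sexes was not tested.

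Some cell type markers were called between LKO and control in the same females. For 5 lipid-associated macrophage markers, summed CPM was 58.2 to 84.7 in control and 86.0 to 147 in LKO females. Of the 5, 4 were called higher, where 1.42 percent of all genes were called. For 4 adipocyte markers the sums were 6.27 to 18.7 and 24.4 to 74.7. These sums were mostly Cidec, which alone ran over 5.84 to 18.7 and 24.4 to 74.5 CPM. Cidec, a lipid droplet gene that fatty hepatocytes also express, was the only 1 of the 4 that was tested, and it was called higher. Hepatocyte markers summed to 68631 to 80900 and 46239 to 72168, with 0 of 6 called, 6 of 6 at a negative log2 fold change and a median of -0.27. Albumin (Alb) made up most of these sums, at 57460 to 67281 CPM in control and 37771 to 61037 CPM in LKO females. For 6 stellate cell and fibroblast markers the sums were 73.8 to 109 and 80.5 to 156, with 0 called, 6 of 6 at a positive log2 fold change and a median of 0.30. Of these 6, 3 had an unadjusted p under 0.05, where 8.31 percent of all genes were higher at that p. The Kupffer cell and macrophage, endothelial cell, cholangiocyte and lymphocyte lists had 0 called in females, with medians of -0.03, -0.27, 0.28 and 0.65. No marker of these lists was at 0 in every sample of a sex, and the part of the markers in the ratios was not tested.

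**Figure D3:**
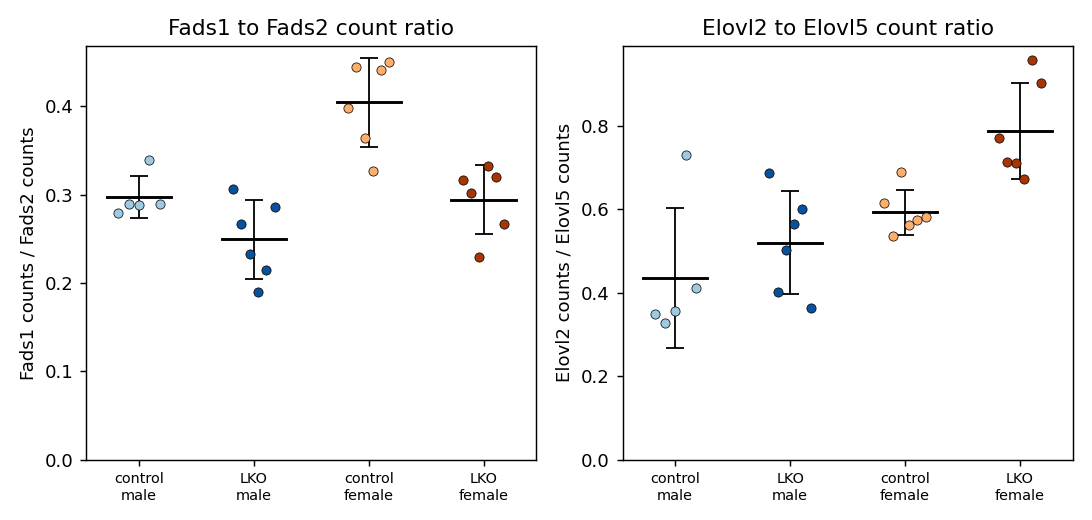
Within-sample count ratios (linear axes from 0) of Fads1 to Fads2 (left) and Elovl2 to Elovl5 (right), 1 point per mouse, with the group mean and bars of 1 SD. In females 5 of 6 LKO points lie below the lowest control for Fads1 to Fads2 and 5 of 6 above the highest control for Elovl2 to Elovl5, while control male replicate 4 is the top control male point in both panels.

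Among controls, females and males differed in 1 of the 6 genes, 1 called against 18 percent of 13699 genes tested. Sex coincides with the deposited table, so the sexes and any difference between the tables cannot be told apart. With the 11 controls scaled together, Fads3 CPM was 10.7, 26.7 and 35.4 as lowest, median and highest in males and 28.8, 46.6 and 103 in females. The means were 25.0 ± 9.20 CPM (SD, n = 5) and 52.4 ± 26.8 CPM (SD, n = 6), a female over male log2 fold change of 1.07 (SE 0.33, adjusted p 0.0411). The groups overlapped, as they did for every member, against 10.3 percent of genes without overlap. The call did not hold in 8 of the 11 fits that left out 1 control, including those without control male replicate 4 (0.88, adjusted p 0.0536) and without control female replicate 2 (0.75, adjusted p 0.0751). Elovl2 was 0.29 (SE 0.11, adjusted p 0.0913), Fads6 -0.27 (SE 0.13, adjusted p 0.162), Fads2 -0.38 (SE 0.27, adjusted p 0.341), Elovl5 -0.27 (SE 0.20, adjusted p 0.378) and Fads1 0.08 (SE 0.24, adjusted p 0.866). As a description of the controls alone, the Fads1 to Fads2 ratio was 0.297 ± 0.0238 (SD, n = 5) in males and 0.404 ± 0.0507 (SD, n = 6) in females.

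Beyond genotype and sex, livers differed among themselves, and some of the pathway genes varied together. Pearson's r was computed over 23 livers on log2(CPM + 1) after subtraction of the group mean, for 15 pairs of the genes and 6 pairs with Srebf1, which encodes SREBP1. The p-values are from 100000 permutations within groups, adjusted over the 21 pairs and given for Pearson's r and then Spearman's rho. Fads1 and Fads2 had r 0.90 (rho 0.86, adjusted permutation p 0.000210 and 0.000420), where the unadjusted Pearson p was 1e-05, the smallest these permutations can give. Without the 2 livers farthest from the Fads1 median, control male replicate 4 and LKO male replicate 5, r was 0.85. A liver high in 1 of the 2 adjacent desaturase genes thus tended to be high in the other.

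**Figure D4:**
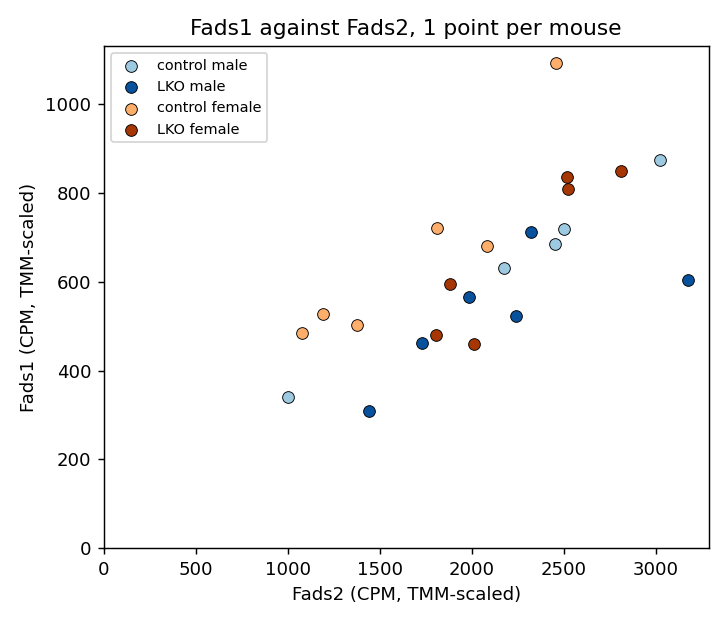
Fads1 against Fads2 in CPM (both axes linear from 0), 1 point per mouse, coloured by group. Within each group the livers with more Fads2 tend to have more Fads1 (r 0.90 within groups), and the LKO females lie lower in Fads1 for a given Fads2 than the control females.

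Elovl5, on another chromosome, followed Fads1 with r 0.79 (rho 0.77, adjusted permutation p 0.00126 and 0.00157) and Fads2 with r 0.67 (rho 0.58, adjusted permutation p 0.0313 and 0.0330). Without the 2 farthest livers these r values were 0.69 and 0.49. Elovl2 followed Fads1 with r 0.62 (rho 0.73, adjusted permutation p 0.0216 and 0.00189) and Elovl5 with r 0.47 (rho 0.67, adjusted permutation p 0.0495 and 0.00535), and without the 2 farthest livers r was 0.72 and 0.53. Fads3 had r 0.66 (rho 0.59, adjusted permutation p 0.0242 and 0.0316) with Fads2 and r 0.58 (rho 0.43, adjusted permutation p 0.0409 and 0.151) with Fads1. The last of these passed on Pearson's r but not on Spearman's rho, and without control male replicate 4 and LKO male replicate 5 its r was 0.43. Fads2 with Elovl2, in turn, passed on rho but not on r, with r 0.42 (rho 0.53, adjusted permutation p 0.0799 and 0.0420). Fads6 passed with none of the other 5.

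In all, 7 of the 15 pairs passed on Pearson's r. Without control male replicate 4 there were 3, namely Fads1 with Fads2, Elovl2 and Elovl5. In the 12 females alone there were 4, with Fads1 and Fads2 at r 0.89, and in the 11 males alone only that pair, at 0.91. None of the 6 pairs with Srebf1 passed. The lowest r with Srebf1 was that of Elovl2 (-0.48, adjusted p 0.0687), and it was -0.20 without LKO male replicate 1 and LKO female replicate 5.

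**Figure D5:**
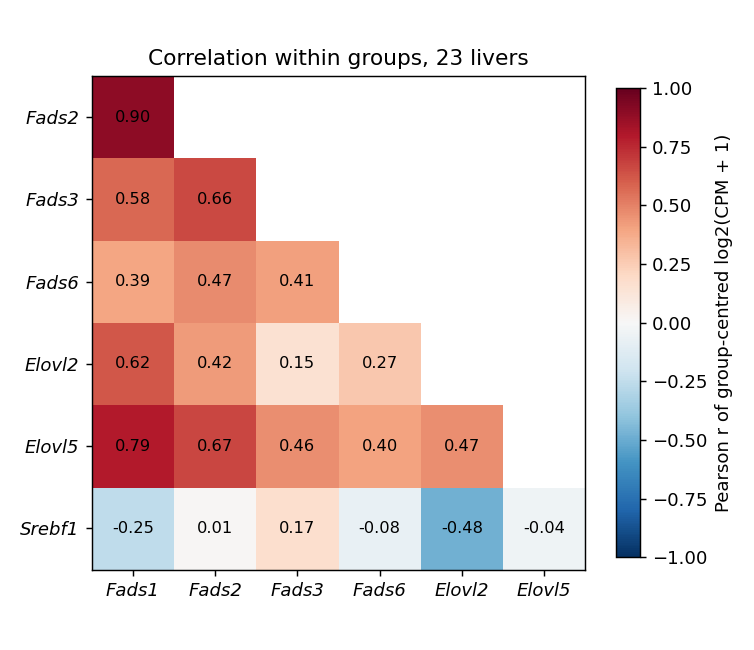
Pearson's r between the 6 genes and Srebf1 over 23 livers, on log2(CPM + 1) with group means subtracted, printed in each cell and coloured from -1 (blue) to 1 (red). The highest cell is Fads1 with Fads2 (0.90), and the Srebf1 row runs from -0.48 to 0.17.

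Among 7569 genes tested in both sexes with a mean of at least 10 CPM, the 3 genes most like each member were listed by the same r, as a description with no test. For Fads1 they were Lss (0.91), the lanosterol synthase, Fads2 (0.90) and Acacb (0.89), an acetyl-CoA carboxylase. Fads2 was most like Fads1 (0.90), Acat2 (0.87), an acetyl-CoA acetyltransferase, and Tmem97 (0.85), an endoplasmic reticulum protein. Elovl5 was most like Tlcd1 (0.84), Acsl5 (0.83), a long-chain acyl-CoA synthetase, and Pgrmc2 (0.81). Among the genes most like Elovl5, Fads1 ranked 9th, and Elovl5 ranked 17th for Fads1. Other pairs ranked lower. For Fads2, Elovl5 ranked 79th and Elovl2 649th, and for Elovl2, Fads1 ranked 28th and Elovl5 304th. For Elovl2 the list was Mib1 (0.83), a ubiquitin ligase, Tm7sf2 (0.77), a sterol reductase, and Alb (0.73), albumin. Fads6 was most like Rnf123 (0.92), Lrrc47 (0.90) and Epg5 (0.88), and Fads3 most like Tapbpl (0.74), Tmem97 (0.74) and Fdxr (0.74). Of these genes Tm7sf2 was called lower in LKO females (log2 fold change -0.80, edgeR adjusted p 0.0384).

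The other genes of the pathway were followed as lists, with up to 3 genes of lowest p named per sex. The machinery shared by elongation and desaturation, the other elongases, the dehydratases and reductases of the elongation cycle, the cytochrome b5 donors and the stearoyl-CoA desaturases, had 16 of 20 genes tested. In males 0 were called, with 0 higher and 2 lower at an unadjusted p under 0.05, where the background was 5.23 and 7.22 percent. Those 2 were the dehydratase Hacd1, at -0.47 (SE 0.13, adjusted p 0.266), and the enoyl reductase Tecr, at -0.30 (SE 0.10, adjusted p 0.303). In females edgeR called 0 and DESeq2 2, where over all genes they called 194 and 554. At an unadjusted p under 0.05, 2 were higher and 2 lower against 8.31 and 7.33 percent. The elongase Elovl7 had 0, 0.584 and 0.946 CPM as lowest, median and highest in control females and 1.06, 1.70 and 2.67 in LKO females, a log2 fold change of 1.78 (SE 0.46, adjusted p 0.0698) at a level close to the limit of detection. The stearoyl-CoA desaturase Scd1 was at -0.67 (SE 0.28, adjusted p 0.257) and the electron donor Cyb5b at -0.33 (SE 0.10, adjusted p 0.121). Elovl6, which lengthens saturated chains, was at 0.68 (SE 0.32, adjusted p 0.404) in males. The list as a whole had a median log2 fold change of -0.07 in males and 0.01 in females.

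All 12 genes of peroxisomal chain shortening, the step that yields DHA, were tested, and 0 were called in either sex by edgeR or DESeq2. In females 5 were higher and 1 lower at an unadjusted p under 0.05, against 8.31 and 7.33 percent of all genes. There 11 of 12 had a positive log2 fold change, where 51.1 percent of all genes did, with a median of 0.21. The thiolase Acaa1a was at 0.36 (SE 0.12, adjusted p 0.159) and the bifunctional enzyme Hsd17b4 at 0.28 (SE 0.11, adjusted p 0.225). In males 1 was higher and 0 lower, against 5.23 and 7.22 percent, with a median of 0.07. The higher gene was the transporter Abcd3, at 0.19 (SE 0.09, adjusted p 0.396). Hsd17b4 and Ehhadh were at 0.16 (SE 0.10, adjusted p 0.544) and 0.26 (SE 0.21, adjusted p 0.652) in males. Without LKO male replicate 5 the Ehhadh value was 0.00191.

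The products are activated and placed into phospholipids by acyl-CoA synthetases and acyltransferases and released by lipases. Of 18 such genes 15 were tested, and edgeR called 0 in either sex. At an unadjusted p under 0.05, 0 were higher and 2 lower in males, against 5.23 and 7.22 percent of all genes. In females 3 were higher and 2 lower, against 8.31 and 7.33 percent. DESeq2 called 0 in males and 1 in females, where it called 107 and 554 genes in all. Named in females were the lipase Pnpla3 at -1.52 (SE 0.40, adjusted p 0.0761), the phospholipase Pla2g6 at 0.45 (SE 0.16, adjusted p 0.179) and the synthetase Acsl5 at -0.38 (SE 0.16, adjusted p 0.248). In males the phospholipase relative Pla2g12b was at -0.31 (SE 0.10, adjusted p 0.274), the acyltransferase Lpcat4 at -0.75 (SE 0.24, adjusted p 0.279) and Pnpla3 at -0.80 (SE 0.45, adjusted p 0.494). The log2 fold change of Pnpla3 was negative in both sexes. It passed the threshold in neither with edgeR on all samples of a sex without a block, but in females it passed in 3 alternatives, with DESeq2, with the replicate number as a block and without control female replicate 3, with a lowest adjusted p of 0.0138.

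Enzymes that turn arachidonic acid into eicosanoids and oxylipins gave 10 tested genes in males and 9 in females of 15. At an unadjusted p under 0.05, 3 were higher in males against 5.23 percent of all genes, and 2 in females against 8.31 percent. None was lower in either sex. In males edgeR called 0, and in females 1, where it called 1.42 percent of all genes. The called gene was Ephx1, an epoxide hydrolase of the endoplasmic reticulum, with 229.8, 323 and 417 CPM as lowest, median and highest in control females and 392, 465 and 673 in LKO females, a log2 fold change of 0.66 (SE 0.16, adjusted p 0.0498). Its call did not hold in 13 of the 21 alternatives, over which the adjusted p ran from 0.00339 to 0.123. In males DESeq2 called Ephx1 (adjusted p 0.0478) while edgeR did not. By edgeR it was at 0.49 (SE 0.14, adjusted p 0.266) in males, the cyclooxygenase Ptgs1 at 0.30 (SE 0.13, adjusted p 0.366) and the prostaglandin D synthase Hpgds at 0.93 (SE 0.43, adjusted p 0.400). Hpgds and Ptges2 in females were at 0.66 (SE 0.21, adjusted p 0.132) and 0.14 (SE 0.09, adjusted p 0.509).

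The 2 transcriptional programmes known to drive Fads1 and Fads2 had list medians of opposite sign in LKO females. Of 16 SREBP1-linked lipogenic genes, all tested, 9 were lower at an unadjusted p under 0.05 against 7.33 percent, with a median of -0.38. By edgeR 1 was called lower, where 1.42 percent of all genes were called in either direction. The called gene was the acetyl-CoA synthetase Acss2, at 67.8, 123 and 499.9 CPM in control and 42.4, 57.1 and 80.8 in LKO females, a log2 fold change of -1.65 (SE 0.38, adjusted p 0.0487), and its call did not hold in 13 of 21 alternatives. The highest control was replicate 2, without which the log2 fold change of Acss2 was -1.02 (adjusted p 0.0215). Scap, the escort of SREBP, was at -0.41 (SE 0.10, adjusted p 0.0647) and the glucose-responsive factor Mlxipl at -0.35 (SE 0.10, adjusted p 0.0905). Of 16 genes of the PPAR-alpha list, 9 were higher at an unadjusted p under 0.05 against 8.31 percent, with a median of 0.41. Among them 1 was called higher, against the same 1.42 percent. That gene was the thioesterase Acot2, at 8.47, 18.1 and 29.7 CPM in control and 32.8, 45.0 and 77.8 in LKO females without overlap, a log2 fold change of 1.39 (SE 0.31, adjusted p 0.0384), and its call did not hold in 9 of 21 alternatives. Acot2 has a near-identical copy, Acot1, so the split of reads between the 2 is uncertain. The droplet coat gene Plin2 was at 0.71 (SE 0.17, adjusted p 0.0519) and the hormone gene Fgf21 at 1.91 (SE 0.53, adjusted p 0.0906). Without LKO female replicate 6, Fgf21 was at 1.15.

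DESeq2 called 4 genes of the lipogenic list and 3 of the PPAR-alpha list in females, where it called 554 genes in all. In males neither programme had a called gene, by edgeR or by DESeq2. At an unadjusted p under 0.05 the lipogenic list had 0 genes in either direction and the PPAR-alpha list 0 higher and 1 lower. Over all genes 5.23 percent were higher and 7.22 percent lower at that p. The list medians were -0.03 and 0.09. Fgf21 was at -0.80 (SE 0.36, adjusted p 0.386) in males and at -0.29 without control male replicate 3, Slc25a20, the carnitine carrier, at 0.20 (SE 0.11, adjusted p 0.490) and Acot2 at 0.48 (SE 0.39, adjusted p 0.660). The lipogenic genes of lowest p were Nr1h3 at -0.17 (SE 0.08, adjusted p 0.411), Acacb at -0.52 (SE 0.38, adjusted p 0.608) and Insig2 at -0.25 (SE 0.20, adjusted p 0.644). Fads1 and Fads2 themselves, known targets of both programmes, had female log2 fold changes of 0.01 and 0.44, and neither was called. Whether they followed either programme was not tested.

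Genes near the desaturase cluster on chromosome 19 were followed as a list, which left out the nearby Incenp and Syt7. Whether a difference was shared by the region was not tested. Of 7 neighbours 5 were tested and 0 were called in either sex. At an unadjusted p under 0.05 there were 0 in males, against 12.5 percent of all genes, and 1 in females, against 15.6 percent. That 1 was Myrf, lower at -0.40 (SE 0.16, adjusted p 0.232). Tmem258 was at -0.18 (SE 0.09, adjusted p 0.402) in males and -0.21 (SE 0.11, adjusted p 0.390) in females, Fth1, the ferritin heavy chain, at -0.10 (SE 0.10, adjusted p 0.760) and 0.18 (SE 0.09, adjusted p 0.320), and the diacylglycerol lipase Dagla at 0.22 (SE 0.26, adjusted p 0.790) in males. The neighbours had signs in both directions, as did Fads1, Fads2 and Fads3 themselves.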

How the data were processed

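Raw read counts per gene, from poly(A)-selected and dUTP-based libraries per the labels' protocols, were deposited by the authors in 1 table per sex. The submitters' processing notes name HISAT2 2.0.5 and mm39. The counter, annotation and strand setting are not given in the sources used here. Positions are those of the tables. The authors also deposited normalized counts (a signal scaled by size factors), FPKM values, and log2 fold changes with raw and adjusted p-values from comparisons of their own, which are not printed here.

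The counts were tested per sex with edgeR 4.0.16 in R 4.3.3 (filterByExpr, TMM, quasi-likelihood F-test, Benjamini-Hochberg adjustment over all genes tested, called at an adjusted p under 0.05). SE is the absolute log2 fold change over the square root of F. The interaction and the average of both sexes used all 23 samples with 4 group means, and control females against control males used the 11 controls. Count ratios had a pseudocount of 0.5 counts and a two-sided exact permutation test of the absolute difference in mean log2 ratio. Scripts were tested on simulated data.

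Named genes were the 6 members, Cpt1a, up to 3 genes of lowest p and every called gene per pathway list and sex, and the 3 genes of highest correlation with each member, except 1 gene whose values are not reported here. Marker lists covered 8 cell types. Lists of Kupffer cell and macrophage, stellate cell and fibroblast, endothelial cell, cholangiocyte and lymphocyte markers had no gene called between LKO and control in either sex. The members, lists and comparisons were chosen with earlier results of these data known. The labels name each sample as a separate sample of its group, so p-values measure the spread between these samples. Alternatives were RLE factors, library size alone, no filter or at least 10 counts in every sample, DESeq2 1.42.0, limma 3.58.1 on FPKM with a pseudocount of 1 or 0.1, both sexes in 1 model, the replicate number as a block, and omission of 1 sample at a time. No sample column was left unused.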

Additional observations from a re-analysis of the deposited data

Results flagged for a closer look

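Of 32 groups of values examined (6 genes and 2 ratios in 4 groups), 5 held 1 sample that stood apart from the others of its group by Dixon's criterion, which flags about 1 in 20 groups by chance. Control female replicate 2 had the highest Fads3 of its group, 103.9 CPM, where the next had 55.6. LKO female replicate 1 had the lowest Fads6 of its group, 64.6 CPM, where the next had 94.9. LKO male replicate 1 had the highest Elovl2 of its group, 671 CPM, where the next had 451. Control male replicate 4 had the highest ratio of its group for both pairs, 0.339 for Fads1 to Fads2, where the next had 0.290, and 0.731 for Elovl2 to Elovl5, where the next had 0.412. The causes were not tested.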

How the results depend on the processing

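Of 702 values of the 6 genes under the alternatives, 668 kept their sign and their side of the threshold, 25 changed sign and 9 lost a call. In the comparisons of LKO with control, the interaction and the average of both sexes, 0 members were called under every alternative run. The 9 lost calls were all Fads3 in control females against control males, where library size alone gave 0 members called and leaving out single controls gave 0 to 1 (log2 fold change 0.75 to 1.22). Values that changed sign were all near 0. With the replicate block, Fads2 in males was 0.071. With limma on log2(FPKM + 1) and log2(FPKM + 0.1), the Elovl2 interaction was 0.00063 and 0.00070. Leaving out single samples gave -0.24 to 0.080 for Fads2 and -0.040 to 0.17 for Elovl2 in males, -0.069 to 0.21 for Fads1 in females, -0.22 to 0.072 for Elovl5 and -0.11 to 0.12 for Elovl2 in the interaction, -0.23 to 0.023 for Fads3 in the average, and -0.12 to 0.21 for Fads1 in control females against control males. The log2 ratio differences without single samples ran from -0.33 to -0.19 (Fads1 to Fads2) and 0.20 to 0.50 (Elovl2 to Elovl5) in males, and from -0.52 to -0.39 and 0.35 to 0.45 in females, where the adjusted p ran from 0.00866 to 0.0130. Of the 21 correlations, 13 passed with library size alone, 1 in males alone, 4 in females alone and 3 without control male replicate 4. With Srebf1, r changed sign for Fads6 and Elovl5 with library size alone (0.15 and 0.13) and in males alone (0.062 and 0.055), and for Fads2 in females alone (-0.095) and without control male replicate 4 (-0.035). The causes were not tested.

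In the comparisons of LKO with control, counts over all genes differed widely between the tests. DESeq2 called 107 genes in males, 554 in females, 72 in the interaction and 303 in the average, where edgeR called 1, 194, 0 and 79, and the fit of all 23 samples called 5 and 94 in males and females. The replicate block gave 2 and 334. For control females against control males, edgeR called 2466 genes and DESeq2 2999, and leaving out single controls gave 1766 to 2947. Same-numbered deviations correlated at -0.33 to 0.40 in males and 0.0090 to 0.17 in females, and not every sample matched its own number best. These values do not settle whether replicate numbers pair the samples, and the main fits assumed no pairing. The block was not applied to the interaction, the average or the control comparison, and limma on FPKM was not run for the last because the 2 tables were normalized separately. Depth did not limit the members, the lowest count being 136 for Fads3.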
